A study of Mus musculus with 9 samples.

Results

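The 52 genes described here are the Wnt ligands, their Frizzled and Lrp receptors and the modulators around them, measured in mouse glioblastoma tissue. They were taken by symbol from the protein-coding genes of the GENCODE vM21 annotation, 52 of 21547 such genes and of 46517 gene identifiers in all. The rule covers Wnt ligands, Frizzled receptors, the co-receptors Lrp5 and Lrp6, R-spondins with the receptors Lgr4 to Lgr6, the secreted inhibitors of the Sfrp and Dkk families with Wif1 and Notum, and Lef1, Tcf7, Axin2, Nkd1 and Nkd2. Measured levels played no part in that rule. By role there were 18 ligands, 12 receptors, 7 R-spondins and Lgr receptors, 10 secreted inhibitors and 5 nuclear factors and feedback genes.

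Bulk RNA was sequenced from tumours of 3 mouse models, Synapsin-cre, NG2-creERTM and Nestin-creERT2, with 3 libraries each. All 9 samples were total RNA of primary tissue from animals of mixed background, and the series compares tumours named for different cells of origin. Synapsin-cre is named for a promoter active in neurons. NG2-creERTM is named for the promoter of Cspg4, active in oligodendrocyte precursors and pericytes, and Nestin-creERT2 for the promoter of Nes, which marks stem and progenitor cells of the nervous system. The ERTM and ERT2 forms of Cre act after tamoxifen, so those models can be induced at a chosen time whereas a constitutive Cre acts whenever its promoter does. The labels used here give neither the tumour alleles nor the age or sex of the animals, and they do not say whether the libraries of a model came from separate animals. p-values measure only the spread between libraries, which may be technical in part.

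Wnt proteins are secreted, lipid-modified signals. In the best known route a Wnt joins a Frizzled receptor to Lrp5 or Lrp6, the complex that destroys beta-catenin is held back, and beta-catenin enters the nucleus to act with Tcf and Lef factors. Target genes of that route include its own brakes, such as Axin2 and Nkd1. R-spondins bound to Lgr receptors keep Frizzled proteins at the cell surface, while Sfrp proteins and Wif1 bind Wnts and Dkk proteins block the co-receptors. In the brain the pathway shapes progenitor growth, and Wnt7a and Wnt7b made by neural and oligodendrocyte precursor cells drive vessel growth and the blood-brain barrier in mice.

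The sequences below are promoter windows of some of the genes compared further on. They are Nkd1 and Axin2, which act as feedback brakes, Lef1, which encodes a nuclear partner of beta-catenin, and the ligand gene Wnt6. Each window runs 5′ to 3′ from 250 bases before to 50 bases after a RefSeq transcript start on GRCm38.p6, and capitals mark TCAAAG, the reverse complement of CTTTGA, the core letters of the Tcf and Lef binding motif. The Nkd1 window is chr8:88527383-88527682, the Axin2 window chr11:108920099-108920398, the first Lef1 window chr3:131110047-131110346, the internal Lef1 window chr3:131156044-131156343 and the Wnt6 window chr1:74771642-74771941, all on the plus strand.
Nkd1: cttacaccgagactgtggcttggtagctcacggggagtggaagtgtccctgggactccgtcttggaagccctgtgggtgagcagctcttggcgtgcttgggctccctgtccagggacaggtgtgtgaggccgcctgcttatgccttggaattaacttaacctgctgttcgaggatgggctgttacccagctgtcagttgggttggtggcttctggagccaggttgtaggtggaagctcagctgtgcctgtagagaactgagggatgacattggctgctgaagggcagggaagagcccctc
Axin2: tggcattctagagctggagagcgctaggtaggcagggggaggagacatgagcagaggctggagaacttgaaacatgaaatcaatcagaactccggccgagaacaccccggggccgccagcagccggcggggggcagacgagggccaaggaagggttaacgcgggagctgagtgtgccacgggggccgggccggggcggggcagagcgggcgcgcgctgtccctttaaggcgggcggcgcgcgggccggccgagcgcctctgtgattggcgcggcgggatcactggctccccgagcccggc
Lef1, first start: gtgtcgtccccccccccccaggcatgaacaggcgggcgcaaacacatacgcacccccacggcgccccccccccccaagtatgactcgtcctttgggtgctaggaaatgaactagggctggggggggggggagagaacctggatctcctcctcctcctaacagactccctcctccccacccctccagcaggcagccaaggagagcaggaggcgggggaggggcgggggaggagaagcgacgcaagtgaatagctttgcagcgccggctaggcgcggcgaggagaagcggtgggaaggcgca
Lef1, internal start: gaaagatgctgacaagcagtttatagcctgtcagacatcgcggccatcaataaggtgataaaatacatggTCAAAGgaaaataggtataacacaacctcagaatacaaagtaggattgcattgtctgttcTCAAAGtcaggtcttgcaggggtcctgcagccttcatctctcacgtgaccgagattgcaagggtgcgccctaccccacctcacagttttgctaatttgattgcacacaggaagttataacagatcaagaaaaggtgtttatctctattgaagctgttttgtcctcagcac
Wnt6: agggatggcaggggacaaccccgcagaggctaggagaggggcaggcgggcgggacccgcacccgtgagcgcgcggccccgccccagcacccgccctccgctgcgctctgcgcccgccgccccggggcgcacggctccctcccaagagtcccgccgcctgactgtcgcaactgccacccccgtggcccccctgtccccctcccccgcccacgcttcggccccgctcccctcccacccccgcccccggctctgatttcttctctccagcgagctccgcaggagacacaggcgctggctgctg

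The printed Lef1 windows differ from each other. The internal start has 2 copies of the motif, both on the minus strand and the first at position -180 from the start, in a window of 43.7% G and C. The first start has 0 copies in a window of 67.3% G and C. Further Lef1 windows, chr3:131110073-131110372 and chr3:131112541-131112840, are not printed and also hold 0 copies. The windows of Nkd1 (58.3% G and C), Axin2 (70.0%) and Wnt6 (76.7%) hold 0 copies. CTTTGA was sought on both strands, with no other motif that could overlap it. Of the 52 members 34 matched the RefSeq promoter table, with 41 windows, and 5 of those windows (12.2%) held at least 1 copy, against 16% of all 32851 windows and 14.4% of the 21263 windows of protein-coding genes. The 5 belong to Dkk1, Fzd1, Lef1, Wnt11 and Wnt5b. The RefSeq start used for Nkd1 lies inside the gene as GENCODE draws it. A match is a description of letters and not of binding, and the counts per gene used here cannot separate the starts of Lef1.

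The libraries held 23557398 to 41099967 counts in genes, with a median of 34742585. Levels are given as CPM, each gene's counts relative to its library's total after TMM scaling, and levels of different genes are compared only as CPM per kilobase of exon. Glioma and glial progenitor markers (Olig2, Olig1, Sox2, Pdgfra, Cspg4 and Nes) summed to 473 to 2860 CPM in Synapsin-cre, 2650 to 5580 in NG2-creERTM and 2130 to 6360 CPM in Nestin-creERT2, and none of them was at 0 in any library. Synapsin-cre replicate 1 stood apart. Its glioma and glial progenitor markers summed to 473 CPM, against 2860 and 2040 CPM in the other Synapsin-cre libraries. Its 8 neuron markers summed to 3900 CPM, against 38.2 to 748 CPM in the other 8 libraries, and its 8 markers of dividing cells to 129 CPM, against 1170 to 2490 CPM. Nestin-creERT2 replicate 1 stood apart in another way, with 8 choroid plexus markers at 6070 CPM in sum, against 6.37 to 414 CPM elsewhere, where Folr1, Kcne2, Otx2 and Prlr were at 0 in at least 1 library. Some of the results that rest on either library, but not all, are given with and without it. The models also differed in sex-linked RNA. Xist lay at 1.02 to 1.28 CPM in the Synapsin-cre libraries, 0.988 to 1320 CPM in NG2-creERTM and 777 to 1810 CPM in Nestin-creERT2, while the Y-linked gene Ddx3y lay at 59.2 to 66.8 CPM in Synapsin-cre, 0.0523 to 71.6 in NG2-creERTM and 0 to 0.0714 in Nestin-creERT2. Within NG2-creERTM, Xist was at 0.988, 1320 and 1.26 CPM and Ddx3y at 5.54, 0.0523 and 71.6 CPM, so these 3 libraries did not all come from the same animal. Sex-linked expression and model cannot be told apart between Synapsin-cre and Nestin-creERT2.

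Most of the pathway was transcribed in these tumours. Of the 52 members 36 averaged at least 1 CPM, and 24 reached 1 CPM in every library. All 12 receptors and all 5 nuclear factors and feedback genes averaged at least 1 CPM, but only 9 of 18 ligands, 6 of 10 secreted inhibitors and 4 of 7 R-spondins and Lgr receptors did. At the other end 7 members reached 1 CPM in no library. Counts sufficed to test 44 members, and Wnt16, Wnt10b, Wnt1, Wnt3a, Wnt8a, Rspo4, Dkk1 and Dkk4 were not tested. Per kilobase of exon the secreted protein gene Dkk3 had the highest mean level of all members (24.2 CPM per kilobase), ahead of Fzd1 (16.2), Fzd9 (15.6), Nkd1 (13.9) and Wnt7b (12.4).

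**Figure D1:**
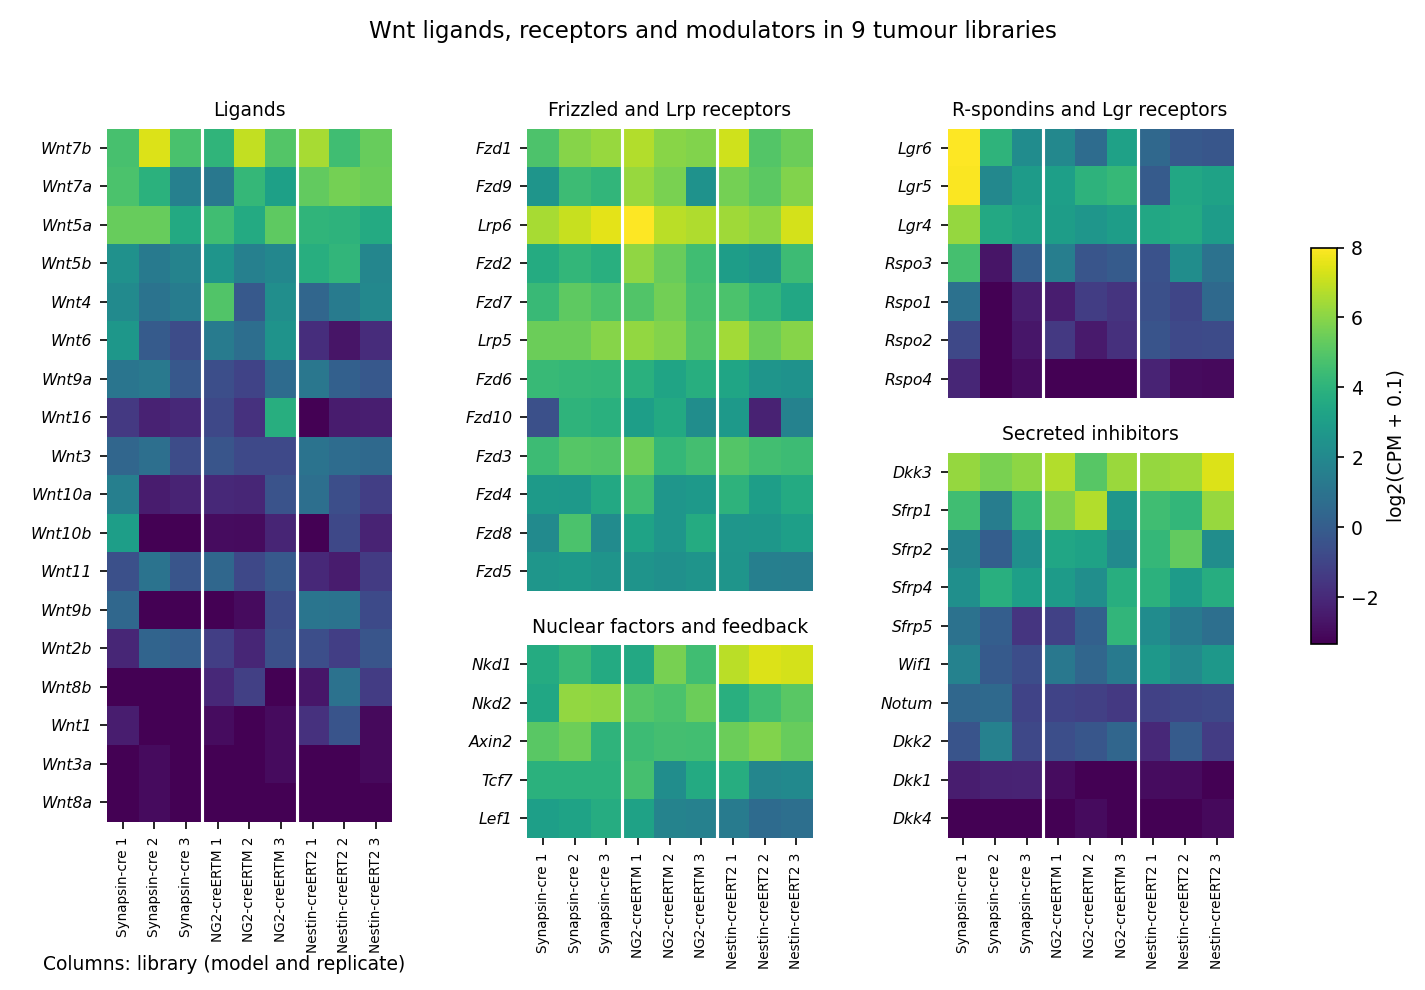
Heat map of all 52 members by role, with libraries in columns (3 each of Synapsin-cre, NG2-creERTM and Nestin-creERT2, split by white lines) and colour giving log2(CPM + 0.1). Nkd1 is brightest in the Nestin-creERT2 columns (115 to 171 CPM), and Lgr6, Lgr5, Lgr4 and Rspo3 are brightest in Synapsin-cre replicate 1 (25.3 to 251 CPM).

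Wnt7b and Wnt7a, the ligands that act on brain vessels, led the ligands. Wnt7b (chromosome 15, 85535437 to 85582473, minus strand) had 25.8, 168 and 26.8 CPM in Synapsin-cre, 16.9, 123 and 30.8 in NG2-creERTM and 91.8, 23.1 and 41.4 in Nestin-creERT2. Each model had 1 library well above its other 2, and the models overlapped. Its fold changes stayed within their errors, with log2 values of 0.50 ± 0.93 for Synapsin-cre over Nestin-creERT2, 0.13 ± 0.93 for NG2-creERTM over Nestin-creERT2 and 0.37 ± 0.93 for Synapsin-cre over NG2-creERTM (SE, edgeR). Without Nestin-creERT2 replicate 1 the log2 values over Nestin-creERT2 were 1.17 ± 1.08 for Synapsin-cre and 0.82 ± 1.06 for NG2-creERTM.

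Wnt7a (chromosome 6, 91363981 to 91411363, minus strand) had 27.5, 14.7 and 2.91 CPM in Synapsin-cre, 2.19, 18.7 and 8.60 in NG2-creERTM and 38.2, 49.5 and 43.5 in Nestin-creERT2. Every Nestin-creERT2 library lay above the other 6. The log2 fold change was -1.54 ± 0.84 for Synapsin-cre over Nestin-creERT2 (edgeR adjusted p = 0.544) and -2.15 ± 0.86 for NG2-creERTM over Nestin-creERT2 (edgeR adjusted p = 0.413), so neither passed. Single libraries moved both values. Without Synapsin-cre replicate 1 the value for Synapsin-cre was -2.31 ± 0.90 (edgeR adjusted p = 0.183), and without NG2-creERTM replicate 2 the value for NG2-creERTM was -3.02 (edgeR adjusted p = 0.41). Synapsin-cre and NG2-creERTM overlapped in this gene. The 2 genes shared their summed level unequally. Wnt7a made up 62.1, 11.9 and 14.4% of the CPM per kilobase of the pair in Synapsin-cre, 16.6, 18.9 and 30.1% in NG2-creERTM and 39.1, 76.8 and 61.8% in Nestin-creERT2. Synapsin-cre replicate 1 thus lay within the Nestin-creERT2 range in this share, and the other 5 libraries of Synapsin-cre and NG2-creERTM lay below it.

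Together Wnt7a and Wnt7b made up 46.2, 81.3 and 58.9% of the CPM per kilobase of all 18 ligands in Synapsin-cre, 22.2, 88.0 and 38.9% in NG2-creERTM and 75.0, 63.5 and 81.1% in Nestin-creERT2. The summed level of the ligands was 30.2, 48.0 and 10.9 CPM per kilobase in Synapsin-cre, 18.7, 35.3 and 23.1 in NG2-creERTM and 41.1, 32.0 and 27.4 in Nestin-creERT2, and the models overlapped.

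**Figure D2:**
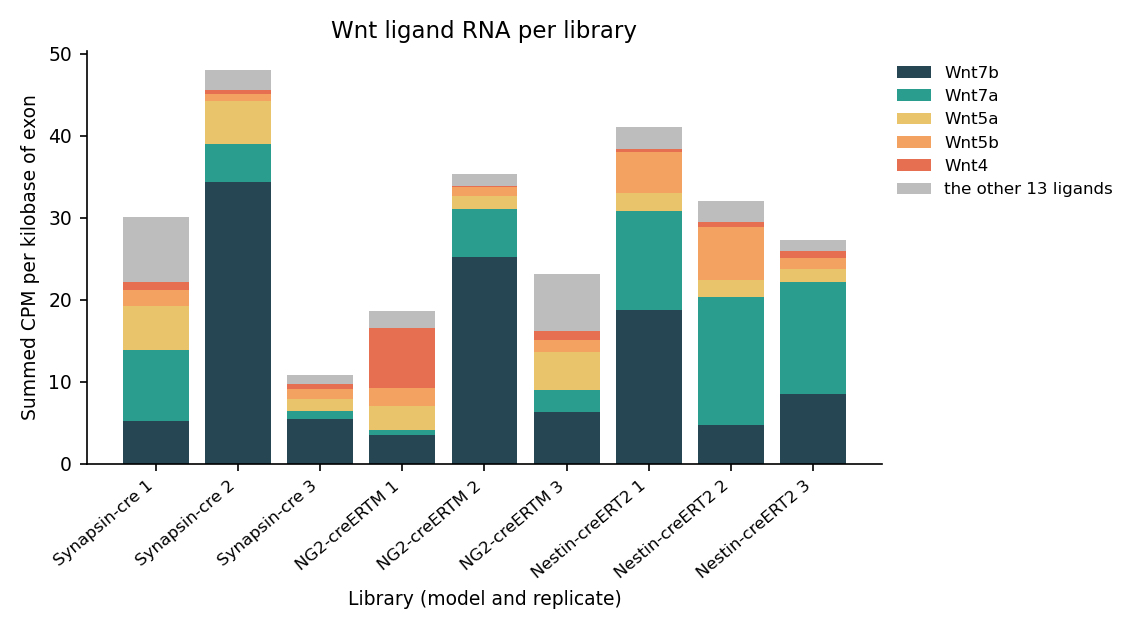
Stacked bars of ligand RNA per library in CPM per kilobase of exon, for Synapsin-cre, NG2-creERTM and Nestin-creERT2 from left to right, with Wnt7b at the base of each bar. The bars run from 10.9 in Synapsin-cre replicate 3 to 48.0 in Synapsin-cre replicate 2, and the Wnt4 segment is tallest in NG2-creERTM replicate 1 (7.25 CPM per kilobase).

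Wnt5a and Wnt5b signal mostly outside the beta-catenin route. Wnt5a had 41.7, 40.6 and 11.7 CPM in Synapsin-cre, 22.9, 12.2 and 36.4 in NG2-creERTM and 17.1, 16.1 and 12.1 in Nestin-creERT2. Higher libraries occurred in both other models, but the lowest library of all was also Synapsin-cre (log2 fold change 1.05 ± 0.55 over Nestin-creERT2, edgeR adjusted p = 0.530). Wnt5b had 5.22, 2.34 and 3.21 CPM in Synapsin-cre, 5.93, 2.98 and 3.67 in NG2-creERTM and 13.4, 17.2 and 3.57 in Nestin-creERT2. Of the Nestin-creERT2 libraries 2 lay above all others and the third lay among them (log2 fold change -1.67 ± 0.65 for Synapsin-cre over Nestin-creERT2, edgeR adjusted p = 0.424).

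Wnt6, a ligand known in chick embryos as an inducer of neural crest, was a ligand that passed in some fits. It lies on chromosome 1 (74771892 to 74785322, plus strand), and its promoter window is printed above. It had 6.28, 0.855 and 0.511 CPM in Synapsin-cre, 2.49, 1.62 and 5.48 in NG2-creERTM and 0.176, 0.0554 and 0.167 in Nestin-creERT2. Every library of Synapsin-cre and NG2-creERTM lay above every Nestin-creERT2 library. For NG2-creERTM over Nestin-creERT2 the log2 fold change was 4.55 ± 1.13 with all 9 libraries (edgeR adjusted p = 0.297), which did not pass. Without Synapsin-cre replicate 1 in the fit Wnt6 rose by 4.55 ± 0.76 on the log2 scale in NG2-creERTM (edgeR adjusted p = 0.0464), and with the 6 libraries of these models alone by 4.56 ± 0.77 (edgeR adjusted p = 0.0445). Without NG2-creERTM replicate 3 its log2 fold change was 3.91. For Synapsin-cre over Nestin-creERT2 it was 4.22 ± 1.12 (edgeR adjusted p = 0.318) and 2.33 ± 0.76 without replicate 1 (edgeR adjusted p = 0.132). Markers of Schwann cells and neural crest were also lowest in Nestin-creERT2. Those 7 markers summed to 183, 804 and 588 CPM in Synapsin-cre, where replicate 1 had the least of them and the most Wnt6. They summed to 874, 292 and 1430 CPM in NG2-creERTM, in the same order as Wnt6, and to 106 to 141 CPM in Nestin-creERT2. None was at 0 in any library, and their part in the level of Wnt6 was not tested. In bulk tissue fewer cells of a type and less RNA per cell cannot be told apart.

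Wnt3, a ligand of the beta-catenin route, was low throughout, at 1.24, 1.65 and 0.511 CPM in Synapsin-cre, 0.689, 0.470 and 0.471 in NG2-creERTM and 1.88, 1.52 and 1.38 in Nestin-creERT2. The NG2-creERTM libraries lay below the Nestin-creERT2 libraries (log2 fold change -1.55 ± 0.59, edgeR adjusted p = 0.399). Wnt16, a ligand of cortical bone, had 0.265, 0.110 and 0.150 CPM in Synapsin-cre, 0.449, 0.209 and 13.6 in NG2-creERTM and 0, 0.0831 and 0.0952 in Nestin-creERT2, and was not tested. Its average rests on NG2-creERTM replicate 3. The neighbouring gene Fam3c, looked at after these values were seen, had 98.7 CPM in that library and 45.4 to 176 CPM over all 9. Cped1, the neighbour on the other side, had 36.1 CPM there, the highest of its 9 values (3.58 to 36.1 CPM), and 31 CPM in NG2-creERTM replicate 1.

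Several other ligands were likewise high in a single library. Wnt4, which acts in kidney and gonad development, reached 30.4 CPM in replicate 1 of NG2-creERTM, with 0.784 to 4.76 CPM elsewhere. Wnt10b, known for holding back fat cell formation, reached 8.05 CPM in Synapsin-cre replicate 1, against at most 0.443 CPM elsewhere. Wnt8b, a ligand of the embryonic forebrain, had 0 counts in all 3 Synapsin-cre libraries, which at 3 counts allows up to 0.0827 to 0.133 CPM, against 0.15, 0.34 and 0 CPM in NG2-creERTM and 0.0587, 1.85 and 0.309 in Nestin-creERT2. In all 10 members had a highest library of at least 10 counts and 3 times the next, of which 5 were highest in Synapsin-cre replicate 1, 2 in NG2-creERTM replicate 3, 2 in Nestin-creERT2 replicate 2 and 1 in NG2-creERTM replicate 1.

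Wnt11, known for cell movements during gastrulation, separated the models at low levels and is described because its values stood out. It had 0.575, 1.90 and 0.691 CPM in Synapsin-cre, 1.26, 0.444 and 0.793 in NG2-creERTM and 0.147, 0.0831 and 0.286 in Nestin-creERT2. Every Nestin-creERT2 library lay below the other 6. Wnt9b, a ligand of the developing kidney, had 1.28, 0 and 0 CPM in Synapsin-cre, 0, 0.0261 and 0.496 in NG2-creERTM and 2.03, 1.88 and 0.476 in Nestin-creERT2, so it was at 0 counts in 3 libraries of the other models. Wnt9a lay between 0.392 and 2.32 CPM, Wnt10a between 0.0827 and 2.83 CPM and Wnt2b between 0.131 and 1.16 CPM, each with overlap in all 3 comparisons.

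The summed level of the receptors ran from 37.1 CPM per kilobase in Synapsin-cre replicate 1 to 129 in NG2-creERTM replicate 1, and the models overlapped. Fzd1 (chromosome 5, 4753839 to 4758035, minus strand), a Frizzled of the beta-catenin route, had 28.7, 61.4 and 75.1 CPM in Synapsin-cre, 105, 63.0 and 57.9 in NG2-creERTM and 145, 31.2 and 43.5 in Nestin-creERT2. Its models overlapped in all 3 comparisons, with log2 fold changes of -0.41 ± 0.59 for Synapsin-cre and 0.04 ± 0.59 for NG2-creERTM over Nestin-creERT2. Without Nestin-creERT2 replicate 1, the library with choroid plexus RNA and the highest Fzd1, the same values were 0.53 ± 0.50 (edgeR adjusted p = 0.818) and 1.01 ± 0.50 (edgeR adjusted p = 0.609), so the first changed sign. The part of choroid plexus RNA in the level of Fzd1 was not tested. Lrp6, the co-receptor that carries the signal inward, had 90.5, 132 and 183 CPM in Synapsin-cre, 308, 114 and 99.3 in NG2-creERTM and 84.3, 68.0 and 156 in Nestin-creERT2, again with overlap throughout. Fzd9, a Frizzled of the developing hippocampus, had 5.93, 21.5 and 17.3 CPM in Synapsin-cre, 76.9, 52.2 and 5.43 in NG2-creERTM and 49.6, 35.1 and 57.1 in Nestin-creERT2. The Synapsin-cre libraries lay below the Nestin-creERT2 libraries (log2 fold change -1.66 ± 0.81, edgeR adjusted p = 0.498), and NG2-creERTM spanned both.

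Fzd2 and Fzd6 separated the models in different ways. Fzd2 (chromosome 11, 102604396 to 102608058, plus strand), a receptor for Wnt5a among others, had 12.5, 18.2 and 13.9 CPM in Synapsin-cre, 70.5, 42.7 and 23.2 in NG2-creERTM and 7.75, 6.04 and 21.8 in Nestin-creERT2. All NG2-creERTM libraries were the highest. On the log2 scale the fold change was 1.94 ± 0.58 for NG2-creERTM over Nestin-creERT2 (edgeR adjusted p = 0.321) and -1.62 ± 0.58 for Synapsin-cre over NG2-creERTM (edgeR adjusted p = 0.357), and neither passed. Without Nestin-creERT2 replicate 3 the first was 2.72. Fzd6 (chromosome 15, 39006034 to 39038188, plus strand), known for planar polarity in skin, had 19.8, 18.7 and 18 CPM in Synapsin-cre, 14.6, 9.64 and 13.4 in NG2-creERTM and 10.1, 5.98 and 5.33 in Nestin-creERT2. The Synapsin-cre libraries were close to each other and above the other 6, and NG2-creERTM and Nestin-creERT2 overlapped by a single library. Its log2 fold change was 1.40 ± 0.40 for Synapsin-cre over Nestin-creERT2 (edgeR adjusted p = 0.325) and 0.59 ± 0.39 for Synapsin-cre over NG2-creERTM (edgeR adjusted p = 0.546). Vessel wall markers were higher where Fzd2 was higher in NG2-creERTM than in Nestin-creERT2, and where Fzd6 was higher in Synapsin-cre than in Nestin-creERT2, but not where Fzd6 was higher in Synapsin-cre than in NG2-creERTM. The 8 pericyte and smooth muscle markers summed to 267 to 581 CPM in Synapsin-cre, 426 to 890 in NG2-creERTM and 99.2 to 159 CPM in Nestin-creERT2, with none at 0, and their part in these levels was not tested. The median log2 fold change of the 12 receptors was 0.36 for Synapsin-cre over Nestin-creERT2, 0.47 for NG2-creERTM over Nestin-creERT2 and -0.20 for Synapsin-cre over NG2-creERTM, against 0.13, 0.02 and 0.08 over all genes tested.

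With all 9 libraries the remaining receptors did not separate the models. Lrp5, the second co-receptor, lay between 30.1 and 86.4 CPM and Fzd3, which guides axons in mice, between 18.8 and 45.4 CPM. Fzd7 lay between 11 and 47.4 CPM, Fzd4, the norrin receptor of retinal vessels, between 6.06 and 22.3 CPM, Fzd8 between 4.2 and 27.9 CPM and Fzd5 between 2.78 and 6.73 CPM. For these 6 the libraries of every pair of models overlapped. Fzd10 had 0.575, 16.5 and 14.6 CPM in Synapsin-cre, 8.05, 11.5 and 4.54 in NG2-creERTM and 6.58, 0.111 and 3.12 in Nestin-creERT2. Synapsin-cre held both the highest values and, in replicate 1, one of the lowest. Without replicate 1 its libraries lay above all libraries of both other models.

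The R-spondin receptors were dominated by the library that stood apart. Lgr6 (chromosome 1, 134983301 to 135105276, minus strand) had 251, 16.3 and 4.39 CPM in Synapsin-cre, 3.80, 1.49 and 8.90 in NG2-creERTM and 1.32, 0.803 and 0.714 in Nestin-creERT2. Even its lowest libraries in Synapsin-cre and NG2-creERTM lay above all of Nestin-creERT2. The log2 fold change of Synapsin-cre over Nestin-creERT2 was 6.58 ± 1.52 (edgeR adjusted p = 0.270) and 3.45 ± 0.84 without replicate 1 (edgeR adjusted p = 0.0682). Over NG2-creERTM the same values were 4.25 ± 1.36 (edgeR adjusted p = 0.357) and 1.13 ± 0.80 (edgeR adjusted p = 0.614), and NG2-creERTM over Nestin-creERT2 gave 2.32 ± 1.27 (edgeR adjusted p = 0.537). Without NG2-creERTM replicate 3 the value over NG2-creERTM was 5.08.

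Lgr5 (chromosome 10, 115450311 to 115587780, minus strand), known as a marker of intestinal stem cells, had 248, 3.83 and 7.36 CPM in Synapsin-cre, 8.32, 15.7 and 19.1 in NG2-creERTM and 0.851, 11.1 and 9.05 in Nestin-creERT2. Apart from replicate 1 the Synapsin-cre libraries lay below all NG2-creERTM libraries and within the Nestin-creERT2 range. The log2 fold change of Synapsin-cre over Nestin-creERT2 was 3.63 ± 1.51 (edgeR adjusted p = 0.439) with that library and -0.33 ± 0.87 without it (edgeR adjusted p = 0.863). Lgr4, the most widely expressed of the 3 receptors in mouse tissues, had 74.7, 11.2 and 8.92 CPM in Synapsin-cre, 7.79, 6.12 and 7.91 in NG2-creERTM and 11.1, 12 and 7.47 in Nestin-creERT2. Its log2 fold change of Synapsin-cre over NG2-creERTM was 2.12 ± 0.77 (edgeR adjusted p = 0.357) with replicate 1 and 0.47 ± 0.41 without it (edgeR adjusted p = 0.683). Rspo3, a ligand of these receptors, had 25.3, 0.0551 and 0.931 CPM in Synapsin-cre, 2.81, 0.680 and 0.843 in NG2-creERTM and 0.617, 4.60 and 1.83 in Nestin-creERT2. Rspo1 reached 1.77 CPM, Rspo2 0.675 CPM and Rspo4 0.133 CPM at most. In that same library the 8 neuron markers stood at 3900 CPM in sum, the 8 microglia and macrophage markers at 658 CPM (66.5 to 321 CPM elsewhere) and the 8 astrocyte markers at 7400 CPM (364 to 5620 CPM elsewhere), and their part in the Lgr and Rspo3 levels was not tested.

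**Figure D3:**
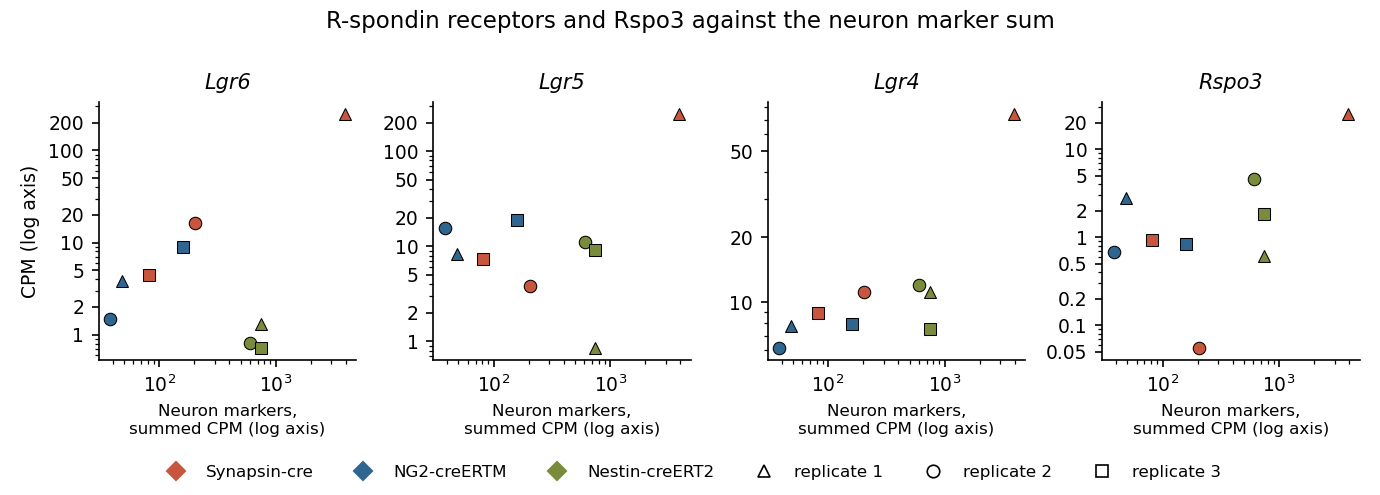
CPM of Lgr6, Lgr5, Lgr4 and Rspo3 (log axes) against the summed CPM of 8 neuron markers, 1 point per library, coloured by model (Synapsin-cre, NG2-creERTM, Nestin-creERT2) with a symbol per replicate. Synapsin-cre replicate 1 lies at the upper right of each panel, with 3900 CPM of neuron markers, while the Nestin-creERT2 libraries with 606 to 748 CPM have the lowest Lgr6.

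Among secreted inhibitors Dkk3, a divergent member of the Dickkopf family, had 73.1, 52.6 and 66.4 CPM in Synapsin-cre, 104, 33.7 and 79.7 in NG2-creERTM and 74.1, 82.2 and 167 in Nestin-creERT2. The Synapsin-cre libraries lay just below the Nestin-creERT2 libraries (log2 fold change -0.75 ± 0.46, edgeR adjusted p = 0.589). Sfrp1, which binds Wnts through a Frizzled-like domain, had 22.9, 2.67 and 18.3 CPM in Synapsin-cre, 55.4, 102 and 6.03 in NG2-creERTM and 22.8, 17.7 and 75.4 in Nestin-creERT2, with wide spread in every model. Sfrp2, a relative of Sfrp1, had 3.36, 0.937 and 4.90 CPM in Synapsin-cre, 10.4, 9.07 and 4.14 in NG2-creERTM and 18.4, 38.5 and 4.55 in Nestin-creERT2. The Nestin-creERT2 libraries spanned nearly the whole range, and the log2 fold change of Synapsin-cre over Nestin-creERT2 was -2.74 ± 0.86 (edgeR adjusted p = 0.35), -1.91 without Nestin-creERT2 replicate 2 and -3.34 without Synapsin-cre replicate 3.

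Wif1 (chromosome 10, 121033960 to 121100650, plus strand), which binds Wnts outside the cell, had 3.14, 0.827 and 0.541 CPM in Synapsin-cre, 2.19, 1.25 and 2.33 in NG2-creERTM and 6.43, 3.90 and 6.43 in Nestin-creERT2. Every Nestin-creERT2 library lay above the other 6. Fold changes on the log2 scale were -1.90 ± 0.73 for Synapsin-cre over Nestin-creERT2 (edgeR adjusted p = 0.419) and -1.54 ± 0.72 for NG2-creERTM over Nestin-creERT2 (edgeR adjusted p = 0.465). Without Synapsin-cre replicate 1, the highest of its model, the first value was -3.03 ± 0.62 (edgeR adjusted p = 0.0514). Sfrp5, of the Sfrp family, reached 17.4 CPM in replicate 3 of NG2-creERTM, with 0.240 to 4.40 CPM elsewhere. The classical Lrp blockers Dkk1 and Dkk4 reached at most 0.12 and 0.0261 CPM. Notum, an enzyme that strips the lipid from Wnts, had 1.28, 1.38 and 0.391 CPM in Synapsin-cre, 0.389, 0.340 and 0.273 in NG2-creERTM and 0.352, 0.415 and 0.452 in Nestin-creERT2, with every Synapsin-cre library above NG2-creERTM, replicate 3 only just. Of the 8 inhibitors tested 6 had lower levels in Synapsin-cre than in Nestin-creERT2, with a median log2 fold change of -1.08 against 0.13 over all genes tested, and for NG2-creERTM over Nestin-creERT2 the median was -0.37 against 0.02.

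Nkd1 (chromosome 8, 88521354 to 88594884, plus strand) had the smallest p of all members in both comparisons with Nestin-creERT2. It encodes a Dishevelled-binding brake named after the Drosophila gene naked cuticle, and it is itself induced by the beta-catenin route. It had 12.3, 20.1 and 11.9 CPM in Synapsin-cre, 11.2, 50.7 and 22.9 in NG2-creERTM and 115, 171 and 153 in Nestin-creERT2. The lowest Nestin-creERT2 library held over 2 times the highest of the other 6. The log2 fold change of Synapsin-cre over Nestin-creERT2 was -3.31 ± 0.55 with all 9 libraries (edgeR adjusted p = 0.163), which did not pass. In the fit without Synapsin-cre replicate 1 Nkd1 fell by 3.20 (SE 0.63, edgeR adjusted p = 0.0479), and in that of these models alone without that library it fell by 3.19 (SE 0.40, edgeR adjusted p = 0.0222). With all 6 libraries of these models alone the value was -3.32 ± 0.38 (edgeR adjusted p = 0.0875). For NG2-creERTM over Nestin-creERT2 it was -2.37 ± 0.53 (edgeR adjusted p = 0.250) and -2.38 ± 0.51 without Synapsin-cre replicate 1 (edgeR adjusted p = 0.0601), so it did not pass in these edgeR fits, and without NG2-creERTM replicate 2 the value was -3.10. DESeq2 with all 9 libraries called Nkd1 lower than in Nestin-creERT2 in both comparisons.

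Axin2 (chromosome 11, 108920349 to 108950783, plus strand), the scaffold of the beta-catenin destruction complex that is used as a readout of the route, had 34.5, 45.0 and 16.2 CPM in Synapsin-cre, 21.9, 24.7 and 23.4 in NG2-creERTM and 43.5, 58.1 and 40.9 in Nestin-creERT2. The NG2-creERTM libraries lay close together and below the Nestin-creERT2 libraries, and Synapsin-cre overlapped both. Its log2 fold change of NG2-creERTM over Nestin-creERT2 was -1.02 ± 0.39 (edgeR adjusted p = 0.398), smaller than that of Nkd1 in the same libraries. Nkd2, the relative of Nkd1, did not follow it. Nkd2 had 10.6, 71.6 and 66.9 CPM in Synapsin-cre, 32.1, 27.4 and 43.5 in NG2-creERTM and 14.1, 23 and 34.2 in Nestin-creERT2. Its values overlapped in all 3 comparisons, and Synapsin-cre replicate 1 was the lowest of the 9 libraries (log2 fold change 1.07 ± 0.63 for Synapsin-cre over Nestin-creERT2, edgeR adjusted p = 0.582). Without replicate 1 the other Synapsin-cre libraries lay above every library of both other models. In that edgeR fit Nkd2 had an unadjusted p under 0.05 against each of those models, and neither difference passed after adjustment.

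Lef1 (chromosome 3, 131110471 to 131224356, plus strand), the nuclear factor with the windows printed above, ran the other way. It had 8.27, 9.29 and 12.6 CPM in Synapsin-cre, 9.16, 3.21 and 3.0 in NG2-creERTM and 2.55, 1.47 and 1.64 in Nestin-creERT2. Both other models lay above Nestin-creERT2 in every library. On the log2 scale the fold change was 2.41 ± 0.59 for Synapsin-cre over Nestin-creERT2 (edgeR adjusted p = 0.285) and 2.52 ± 0.61 without Synapsin-cre replicate 1 (edgeR adjusted p = 0.0674), and it was 1.44 ± 0.57 for NG2-creERTM over Nestin-creERT2 (edgeR adjusted p = 0.413). The NG2-creERTM value rests on replicate 1, without which it was 0.71 (edgeR adjusted p = 0.813). Tcf7, its relative, had 14.8, 14.9 and 15.1 CPM in Synapsin-cre, 25.4, 4.52 and 11.9 in NG2-creERTM and 13.3, 3.52 and 4.05 in Nestin-creERT2. The Synapsin-cre libraries were nearly equal and above the Nestin-creERT2 libraries, though Nestin-creERT2 replicate 1 was close to them. Neuron and astrocyte markers differed between the models too. In Synapsin-cre replicate 1 both sums were the highest of all libraries, at 3900 and 7400 CPM, while Nkd1 was at 12.3 CPM there. Without Synapsin-cre replicate 1 the neuron markers summed to 81.5 to 205 CPM in Synapsin-cre against 606 to 748 CPM in Nestin-creERT2. The astrocyte markers then summed to 364 to 2280 CPM in Synapsin-cre against 4190 to 5620 CPM in Nestin-creERT2. For NG2-creERTM against Nestin-creERT2 the neuron markers summed to 38.2 to 159 against 606 to 748 CPM and the astrocyte markers to 1410 to 3010 against 4190 to 5620 CPM, with none of either list at 0, and their part in the levels of Nkd1, Axin2, Wnt7a, Wif1 and Lef1 was not tested.

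**Figure D4:**
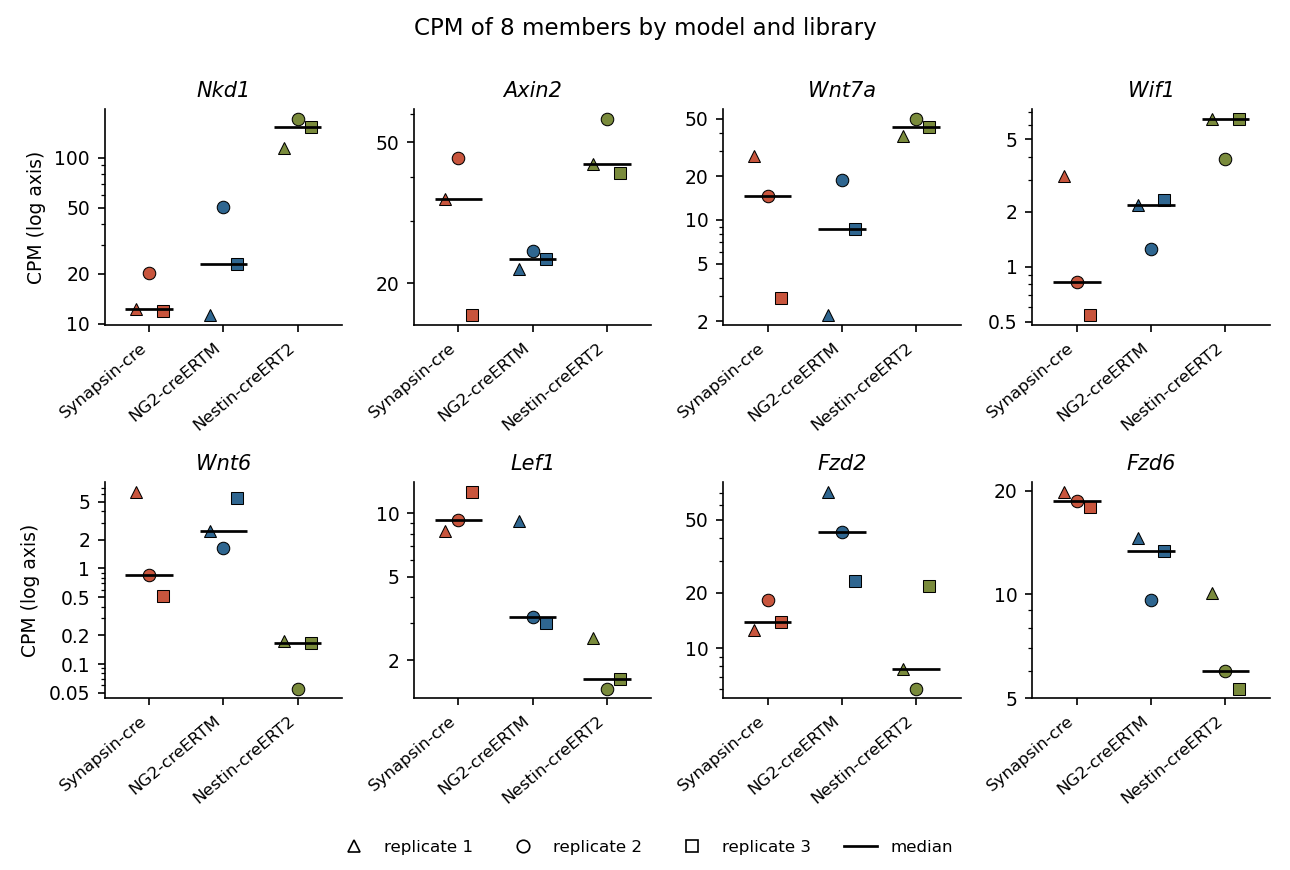
CPM (log axes) of 8 members in each library of Synapsin-cre, NG2-creERTM and Nestin-creERT2, with a symbol per replicate and a line at each median. The 8 were picked for drawing after their values were seen. Nkd1, Wnt7a and Wif1 are highest in Nestin-creERT2, where Nkd1 lies at 115 to 171 CPM against 11.2 to 50.7 CPM elsewhere, while Wnt6 and Lef1 are lowest there.

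Setting Synapsin-cre beside Nestin-creERT2 asks how a driver of neurons and a driver of stem cells differ in the resulting tumours. In Synapsin-cre the data show lower levels of Nkd1, Wnt7a, Fzd9, Dkk3 and Wif1 and higher levels of Wnt6, Lgr6, Lef1, Tcf7 and Fzd6 in every library. In 13 of the 44 tested members the libraries of these models did not overlap, 6 higher and 7 lower in Synapsin-cre, or 29.5% against 14.7% of all genes tested (8.46% higher and 6.26% lower). Of the 7, Wnt8b rests on libraries at 0 counts whose limit reaches the lowest Nestin-creERT2 value. Without Synapsin-cre replicate 1 the count was 21 of 44, against 40.1% of all genes. In edgeR's test of all 9 libraries 0 members passed, as did 0 of 17947 genes (0.0%). At an unadjusted p under 0.05 there were 6 members higher and 5 lower. These 11 of 44 members (25.0%) compare with 10.8% of all genes (6.74% higher and 4.05% lower). limma voom called 0 members (0.0% of genes) and DESeq2 called 7 of 43 (2.86% of genes), namely Nkd1, Lgr6, Lef1, Wnt6, Fzd6, Sfrp2 and Wnt8b. In edgeR without Synapsin-cre replicate 1 only Nkd1 passed, among 1.48% of genes called, and in the fit of these models alone without that library again only Nkd1 did, among 2.42%. The fit of these models alone with all 6 libraries called 0 members (0.0291% of genes). The median log2 fold change of the 44 members was 0.28, against 0.13 over all genes tested.

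Fibroblast, vessel wall and neural crest markers separated these models as well. The 7 fibroblast and meninges markers summed to 146 to 154 CPM in Synapsin-cre and 16.7 to 50.4 CPM in Nestin-creERT2, with none at 0. Their part in the members' differences was not tested.

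How tumours of the NG2 driver differ from those of the Nestin driver is the next question. In NG2-creERTM the data show lower levels of Nkd1, Axin2, Wnt7a, Wnt3 and Wif1 and higher levels of Wnt6, Lgr6, Lef1 and Fzd2 in every library. The libraries did not overlap in 12 of 44 members, 5 higher and 7 lower in NG2-creERTM, or 27.3% against 25.1% of all genes tested (11% higher and 14.2% lower), a share near that of all genes. In edgeR's test of 9 libraries 0 members passed (0.0% of genes). At an unadjusted p under 0.05 there were 4 members higher (5.53% of genes) and 4 lower (5.73% of genes). These 8 of 44 members (18.2%) compare with 11.3% of all genes. limma voom called 0 members (0.0% of genes), and DESeq2 called Wnt6, Nkd1 and Fzd2, 3 of 41 (3.74% of genes). In edgeR without Synapsin-cre replicate 1 Wnt6 passed, among 0.671% of genes called, and in the fit of these 2 models alone Wnt6 again passed, among 1.39%. The median log2 fold change of the members was -0.00, against 0.02 over all genes tested. The fibroblast and meninges markers summed to 106 to 833 CPM in NG2-creERTM and 16.7 to 50.4 CPM in Nestin-creERT2, and their part in these differences was not tested. This comparison and the previous one share the Nestin-creERT2 libraries.

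The comparison of Synapsin-cre with NG2-creERTM showed few separated members. Lgr4, Notum and Fzd6 were higher and Fzd2 lower in every Synapsin-cre library. These 4 of 44 members (9.09%) compare with 13.8% of all genes tested, with 3 higher (8.04% of genes) and 1 lower (5.76% of genes). Without Synapsin-cre replicate 1 there were 13 of 44 members (29.5%), against 26.5% of genes. In edgeR's test 0 members passed with all 9 libraries (0.0% of genes), and 0 without that replicate (0.00541% of genes). At an unadjusted p under 0.05 there were 3 higher, Lgr6, Lgr4 and Notum (8.81% of genes), and 1 lower, Fzd2 (4.0% of genes). That is 4 of 44 members (9.09%), against 12.8% of all genes. limma voom called 0 members (0.0%) and DESeq2 called Lgr6 alone (2.62% of genes). The median log2 fold change of the members was 0.26, against 0.08 over all genes tested.

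Asked for any difference among the 3 models, edgeR called 0 members (0.0% of genes) with all 9 libraries. At an unadjusted p under 0.05 there were 13 of 44 members (29.5%), against 13.1% of genes. Without Synapsin-cre replicate 1 edgeR called Nkd1 and Wnt6, 2 of 45 members (4.44%), against 1.87% of genes. DESeq2 called 6 of 43 members (14.0%), against 5.0% of genes, and limma voom 0 (0.0%).

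**Figure D5:**
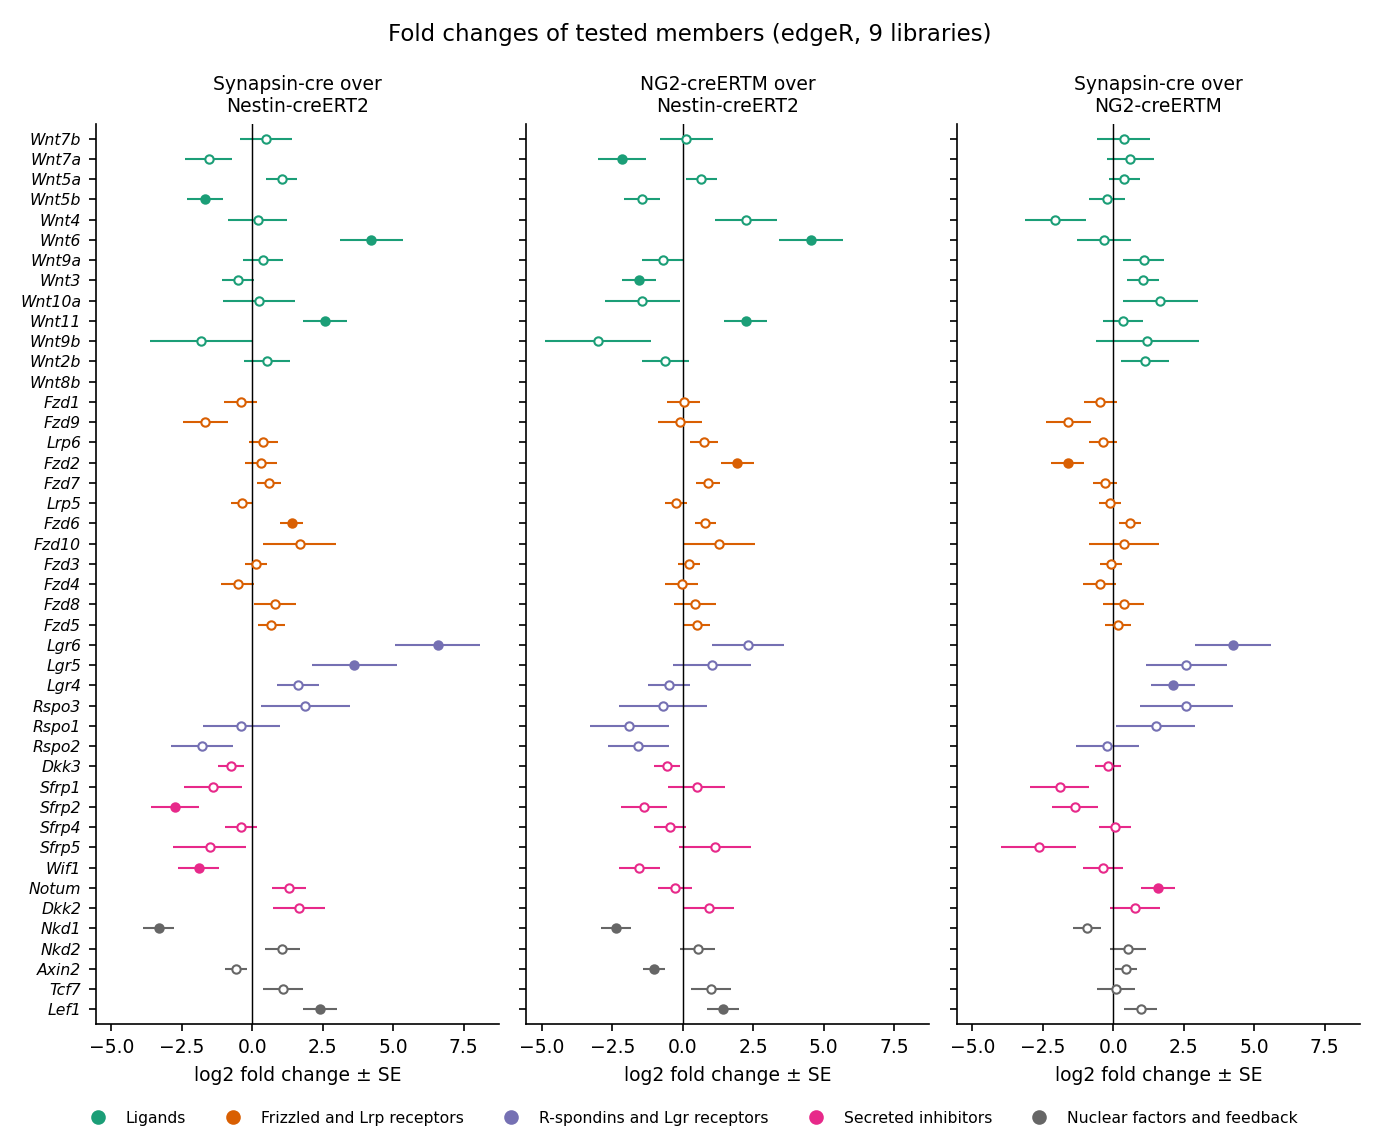
log2 fold changes with SE from edgeR with all 9 libraries, for Synapsin-cre over Nestin-creERT2, NG2-creERTM over Nestin-creERT2 and Synapsin-cre over NG2-creERTM, with members in rows and roles in colours. Filled points have an unadjusted p under 0.05 and none passed after adjustment. Wnt8b is not drawn because it had 0 counts in Synapsin-cre. Nkd1 lies at -3.31 and -2.37 in the comparisons with Nestin-creERT2.

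Of the other genes of the pathway, in lists chosen with earlier results of these data known, 0 rose and 0 fell in any of the 3 comparisons of 9 libraries (edgeR). That covers 19 of 19 genes of Wnt secretion and co-receptors, 19 of 19 of the cytoplasmic beta-catenin route, 16 of 18 nuclear effectors and targets and 11 of 12 planar polarity genes that could be tested. Draxin, an axon guidance protein that also blocks Wnt signalling, had the smallest p among them in both comparisons with Nestin-creERT2. It had 2.12, 5.84 and 2.64 CPM in Synapsin-cre, 2.84, 4.99 and 3.25 in NG2-creERTM and 37.4, 90.1 and 132 in Nestin-creERT2, so all Nestin-creERT2 libraries lay far above the rest. Its log2 fold change was -4.61 ± 0.62 for Synapsin-cre over Nestin-creERT2 (edgeR adjusted p = 0.118) and -4.55 ± 0.62 for NG2-creERTM over Nestin-creERT2 (edgeR adjusted p = 0.152), and it fell in both comparisons in the fit without Synapsin-cre replicate 1. In that fit 0 other genes of the 4 lists passed. At an unadjusted p under 0.05 with all 9 libraries, the list of secretion and co-receptor genes had 3 genes higher and 2 lower for Synapsin-cre over Nestin-creERT2, 3 higher and 2 lower for NG2-creERTM over Nestin-creERT2 and 1 higher and 2 lower for Synapsin-cre over NG2-creERTM, out of 19 genes each, beside 10.8%, 11.3% and 12.8% of all genes. The cytoplasmic list had 1 gene in all, Dvl1, higher in Synapsin-cre than in NG2-creERTM. The nuclear list had Tle1, higher in both comparisons with Nestin-creERT2, Pygo1, lower in NG2-creERTM than in Nestin-creERT2, and Tle2, higher in Synapsin-cre than in NG2-creERTM, and the polarity list had Celsr3 and Celsr2, higher in Synapsin-cre than in NG2-creERTM.

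Further genes of these lists are named by their p. Reck, the membrane protein through which Wnt7a and Wnt7b reach brain vessels, had 25.7, 44.4 and 27.6 CPM in Synapsin-cre, 19.4, 16 and 37.6 in NG2-creERTM and 8.10, 9.16 and 14.1 in Nestin-creERT2. Both other models thus lay above Nestin-creERT2, the model with the highest Wnt7a (log2 fold change 1.64 ± 0.45, edgeR adjusted p = 0.318, for Synapsin-cre, and 1.22 ± 0.44, edgeR adjusted p = 0.382, for NG2-creERTM). Tspan12, which helps Fzd4 receive the ligand norrin, had 13.3, 38.2 and 50.5 CPM in Synapsin-cre, 101, 82.9 and 62.2 in NG2-creERTM and 87.6, 90.7 and 148 in Nestin-creERT2, with Synapsin-cre the lowest in every library (log2 fold change -1.68 ± 0.48 over Nestin-creERT2, edgeR adjusted p = 0.329). Tle1, a Groucho corepressor that binds Tcf and Lef factors, had 42.9, 76.6 and 51.8 CPM in Synapsin-cre, 90.8, 56.2 and 71.6 in NG2-creERTM and 28.0, 27.3 and 40.2 in Nestin-creERT2, again with Nestin-creERT2 lowest (log2 fold change 1.19 ± 0.33 for NG2-creERTM over Nestin-creERT2, edgeR adjusted p = 0.310).

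Porcn, the acyltransferase that puts the lipid on Wnts, had 46, 21.1 and 11 CPM in Synapsin-cre, 9.97, 15.2 and 11.2 in NG2-creERTM and 31.0, 32.4 and 29.9 in Nestin-creERT2. The Nestin-creERT2 libraries were nearly equal and above all of NG2-creERTM (log2 fold change -1.36 ± 0.49, edgeR adjusted p = 0.383). Gpc3, a glypican of the cell surface, had 6.01, 1.63 and 9.10 CPM in Synapsin-cre, 92.1, 12.6 and 11.8 in NG2-creERTM and 5.11, 9.80 and 2.95 in Nestin-creERT2. Porcn and Gpc3 both lie on chromosome X. NG2-creERTM was the highest model for Gpc3 in every library, and most so in replicate 1 (log2 fold change -2.80 ± 0.97 for Synapsin-cre over NG2-creERTM, edgeR adjusted p = 0.357). Celsr3, an atypical cadherin of the planar polarity route that guides axons, had 346, 14.4 and 6.67 CPM in Synapsin-cre, 0.449, 2.27 and 8.11 in NG2-creERTM and 64.3, 16 and 29.7 in Nestin-creERT2. Its highest value was again in Synapsin-cre replicate 1, the library with the most neuron marker RNA.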

How the data were processed

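Gene expression was measured by RNA sequencing of 9 tumour samples. The authors deposited counts of reads per gene, and per the submitters' processing notes STAR, HTSeq and the mouse build mm10 were used, without versions. The strand column that held most reads (column 4) was analysed, since the other strand held 3.25 to 3.64% of reads in genes. The 4 summary lines, 17.9 to 27.3% of reads, were left out. GENCODE vM21 gave symbols for 46005 of 46517 identifiers, and RefSeq tables on GRCm38.p6 the promoters.

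Genes were kept by filterByExpr and tested with edgeR 4.0.16 (R 4.3.3, TMM, quasi-likelihood, 2-sided) in 1 fit of 3 models, with Benjamini-Hochberg adjustment over all 17947 genes and a threshold of 0.05. The code was tested on simulated data. DESeq2 1.42.0, limma 3.58.1 voom, other size factors and filters, unstranded counts, fits of 2 models and fits without single libraries were alternatives. Members, lists and these choices were made with earlier results of these data known.

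Members given in every library averaged at least 1 CPM and had an unadjusted p under 0.05, or separate models with a 4-fold difference in means, or were among the 3 highest per kilobase in their role, which gave 23. Others in the text, such as Rspo3, Tcf7, Wnt4 and Wnt8b, were picked after their values were seen. Up to 6 pathway genes per comparison were named by smallest p. Replicates are numbered in accession order and pair nothing. Scripts used Python 3.11.15, pandas 2.3.3 and matplotlib 3.10.9. A marker of the glioma and glial progenitor list is not reported here, and the list was summed without it.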

Additional observations from a re-analysis of the deposited data

How the results depend on the processing

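The counts of calls depended on the fit. For Synapsin-cre over Nestin-creERT2 edgeR called 0 members and 0 genes with all 9 libraries, 1 member and 12 genes with no filter on low counts, 1 gene with unstranded counts, 5 genes with these models alone, and 1 member and 431 genes with these models alone without Synapsin-cre replicate 1, while DESeq2 called 7 members and 497 genes. Leaving out a single library gave 0 to 1 members and 0 to 273 genes. For NG2-creERTM over Nestin-creERT2 no filter gave 12 genes, these models alone 1 member and 237 genes, DESeq2 3 members and 623 genes, and single libraries left out 0 to 1 members and 0 to 124 genes. For Synapsin-cre over NG2-creERTM DESeq2 called 1 member and 446 genes, the fit of these models alone without Synapsin-cre replicate 1 called 1 gene, and single libraries left out gave 0 to 1 genes. For any difference no filter gave 1 member and 23 genes, DESeq2 6 members and 868 genes, and single libraries left out 0 to 2 members and 0 to 346 genes. The highest of each of these ranges was the fit without Synapsin-cre replicate 1. Members whose libraries did not overlap went up to 21 for Synapsin-cre over Nestin-creERT2 and to 13 for Synapsin-cre over NG2-creERTM without that library, an alternative chosen after seeing the data, against 13 and 4 with it. A set of 20 fold changes was followed over the alternatives. They were picked for an unadjusted p under 0.05 in edgeR with all 9 libraries, or for Wnt7a because libraries did not overlap. That choice favours a kept direction, and Fzd1, outside the 20, changed sign without Nestin-creERT2 replicate 1. Of 333 alternative values of these 20 fold changes 331 kept their direction and 318 their side of the threshold, 15 newly passed, and 2 turned round, both Lgr5 in Synapsin-cre over Nestin-creERT2 at -0.33 without Synapsin-cre replicate 1 (-0.33 to 4.11 over the single libraries left out). The other causes were not tested. No paired analysis was possible because the labels give no replicate numbers shared between the models. With 3 libraries per model and a common biological coefficient of variation of 0.612 (0.503 without Synapsin-cre replicate 1), a value that missed the threshold is not shown to be equal between models.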
